A study of Mus musculus with 12 samples.

Results

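The 10 genes described here, Sqstm1, Nbr1, Optn, Map1lc3b, Gabarap, Gabarapl1, Ulk1, Becn1, Wipi1 and Atg16l1, encode cargo receptors and core proteins of autophagy in the mouse. They were taken by name from an expression table of 25759 genes, and all 10 passed the filter on low counts with 12805 genes in all. The table holds 12 RNA sequencing libraries of gastric organoids, which are stomach epithelium cultured as hollow bodies in a gel, in 4 groups of 3. Organoids were kept for 4 h with Fusobacterium nucleatum (Fn), Helicobacter pylori (Hp) or Neisseria subflava (Ns), or were left untreated. Every group had been moved onto matrigel at the first passage, in medium without growth factors and antibiotics, so the untreated organoids lacked growth factors too. The labels give no mouse strain, age, bacterial dose or strain, and nothing says that replicates came from separate animals or cultures, so p-values measure the spread between these libraries, which may be technical. The comparisons ask whether genes of the autophagy machinery changed with each bacterium and where the bacteria differed.

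Autophagy encloses cytosolic cargo in a double membrane that fuses with the lysosome, where the cargo is degraded. A kinase complex built on ULK1 starts the process, a lipid kinase complex that holds beclin 1 (Becn1) marks the membrane with phosphatidylinositol 3-phosphate, WIPI proteins bind that lipid, and ATG16L1 directs the conjugation of ATG8 proteins (the LC3 and GABARAP families) to the membrane. Receptors such as SQSTM1, NBR1 and optineurin bind both ubiquitin on the cargo and ATG8 proteins. In epithelial cells the same machinery captures bacteria that enter the cytosol. SQSTM1 and lipid-bound LC3 are themselves degraded by autophagy, and the values below are transcript levels, which measure neither protein nor flux.

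All 10 genes are protein coding, and 5 of them lie on chromosome 11 of build GRCm38: Sqstm1, Gabarap, Wipi1, Becn1 and Nbr1. Becn1 and Nbr1 are separated by 249862 bases there and are on opposite strands. Promoter windows (250 bases before to 50 after the start site, from RefSeq on GRCm38.p6) were found for 8 of the 10 genes. The windows of 3 genes with a log2 rise of at least 0.5 with F. nucleatum are printed, 5′ to 3′ on the strand of the gene, because these genes rose together in that group. They are Sqstm1 (chr11:50210771-50211070, minus strand), Map1lc3b (chr8:121590188-121590487, plus strand) and Gabarapl1 (chr6:129532942-129533241, plus strand). The window of Wipi1, the remaining gene with such a rise, begins inside the gene as deposited and is not shown.
Sqstm1: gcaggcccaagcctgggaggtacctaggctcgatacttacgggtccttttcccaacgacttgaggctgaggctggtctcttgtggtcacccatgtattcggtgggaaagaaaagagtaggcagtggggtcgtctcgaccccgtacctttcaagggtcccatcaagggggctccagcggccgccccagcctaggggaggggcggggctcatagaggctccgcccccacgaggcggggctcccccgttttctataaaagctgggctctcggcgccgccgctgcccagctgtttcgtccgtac
Map1lc3b: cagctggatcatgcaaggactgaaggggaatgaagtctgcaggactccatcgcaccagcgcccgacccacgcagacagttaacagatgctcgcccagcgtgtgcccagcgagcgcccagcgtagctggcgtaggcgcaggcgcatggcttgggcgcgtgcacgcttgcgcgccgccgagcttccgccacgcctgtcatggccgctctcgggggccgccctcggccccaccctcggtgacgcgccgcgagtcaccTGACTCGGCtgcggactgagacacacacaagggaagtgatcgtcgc
Gabarapl1: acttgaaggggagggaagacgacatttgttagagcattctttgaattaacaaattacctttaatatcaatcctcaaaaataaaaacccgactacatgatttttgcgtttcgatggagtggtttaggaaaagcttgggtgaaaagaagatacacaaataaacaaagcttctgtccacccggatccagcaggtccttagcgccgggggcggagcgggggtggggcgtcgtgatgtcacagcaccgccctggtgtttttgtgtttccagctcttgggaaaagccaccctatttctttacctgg
Capitals mark the match to a searched motif. Both strands were searched for TGACNNNGC (the core of the antioxidant response element), TCACGTG (an E-box core bound by TFEB), TGATGNAA (a C/EBP-ATF core) and ACGTG (the core bound by hypoxia-inducible factors, which is contained in TCACGTG). Among these 3 windows only that of Map1lc3b held a match, to TGACNNNGC, starting 5 bases after the start site. This motif occurred in 12.4% of all 32851 mouse windows of the same length, TCACGTG in 3.77%, TGATGNAA in 3.97% and ACGTG in 19.6%. These matches describe letters and show no binding.

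Libraries held 16955155 to 23236260 counts, and the 10 genes had from 435 (Wipi1) to 20446 counts (Sqstm1) per library. All 12 gastric epithelial markers were present in every group, with a summed level of 21160 to 24810 TPM (transcript abundance corrected for gene length and scaled to the same total in each library). This sum is led by Tff1, Krt8 and Krt18 and hides changes of single markers in both directions. Gkn1 was at 461 to 690 TPM in untreated libraries and 173 to 260 TPM with H. pylori. Krt18 was at 3755 to 3861 TPM in untreated libraries and 5127 to 5159 TPM with F. nucleatum. The 12 pancreatic markers summed to 3585, 3556 and 3077 counts in the untreated libraries and to 2547 in H. pylori replicate 1, against at most 54 in the other 8 libraries. In both the F. nucleatum and N. subflava libraries 5 of these 12 markers were at 0, Gcg, Cpb1, Ppy and Pnlip in each and Cpa1 or Cel beside them. The 6 leukocyte markers summed to 41.0 to 44.4 TPM with F. nucleatum against 22.3 to 26.4 TPM in untreated libraries. The part of these cells in the changes against untreated organoids was not tested. The pancreatic counts also differed between the H. pylori replicates, so they did not follow treatment alone. In such bulk samples fewer cells of a type cannot be told apart from less RNA per cell. Column headers carry the mark L0 for 2 libraries, untreated and H. pylori replicate 3, and L1 for the other 10.

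Changes are log2 fold changes ± SE from counts scaled by TMM, which assumes that most genes keep their level, with p-values from the quasi-likelihood test of edgeR adjusted by Benjamini-Hochberg over all tested genes. On log2(TPM + 1) the median of all genes was shifted by -0.18 with N. subflava, by -0.08 with H. pylori and by 0.02 with F. nucleatum. As log2 ratios of mean TPM these medians were -0.22, -0.10 and 0.03 in the same order. A gene can thus be higher after TMM scaling and not on the TPM scale. Among all genes, 3250 were higher and 3261 lower with N. subflava after TMM, 1984 and 5402 with no scaling beyond the library total, and 1736 and 5848 with limma on log2(TPM + 1). With H. pylori these splits were 1349 and 1070, 863 and 1824, and 659 and 2012. Where scaling changes the direction or call of one of the 10 genes, this is said beside its value.

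**Figure D1:**
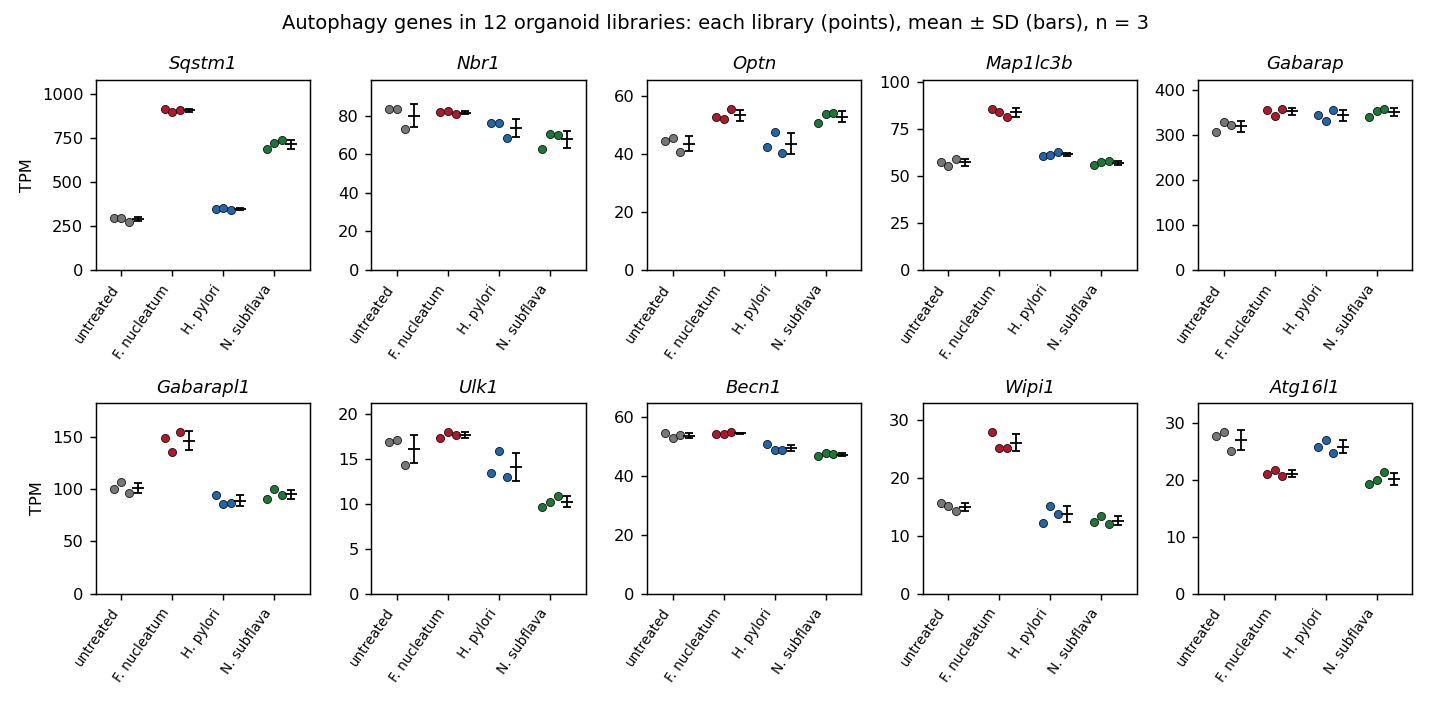
Level in TPM (vertical axis, from 0, with its own range in each panel) of the 10 genes in untreated, F. nucleatum, H. pylori and N. subflava libraries. Points are libraries and bars are mean ± SD (n = 3). Sqstm1 was near 908 TPM with F. nucleatum and 715 TPM with N. subflava against 288 TPM in untreated organoids, and Wipi1, Gabarapl1 and Map1lc3b were highest with F. nucleatum.

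Transcripts differed widely in level between the genes. Per gene length, Gabarap (319 ± 11.3 TPM, SD, n = 3) and Sqstm1 (288 ± 11.5 TPM) were the most abundant in untreated organoids, followed by Gabarapl1, Nbr1, Map1lc3b, Becn1, Optn and Atg16l1. Ulk1 (16.2 ± 1.56 TPM) and Wipi1 (15 ± 0.696 TPM) were lowest, and their untreated libraries overlapped. Sqstm1 ranked 471st of the 12805 tested genes by level in untreated organoids and 159th with F. nucleatum, where it passed Gabarap. The coefficient of variation of TPM within a group ran from 0.464% (Becn1, F. nucleatum) to 11.2% (Ulk1, H. pylori).

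With F. nucleatum, 6 of the 10 genes rose, 1 fell and 3 did not pass the test, so 7 of 10 were called against a background of 65.3% of all tested genes (32.8% higher and 32.4% lower). With N. subflava 4 rose and 2 fell, against a background of 50.8% (25.4% higher and 25.5% lower), and with no scaling or on log2(TPM + 1) 3 rose and 5 fell. With H. pylori 3 rose and none fell, against 18.9% (10.5% higher and 8.36% lower), and 1 rose and 1 fell on log2(TPM + 1). Among 10 genes, the total numbers called lie near the shares of all genes. By direction after TMM, rises were above these shares with F. nucleatum (6 of 10 against 32.8%) and H. pylori (3 of 10 against 10.5%). Falls were below them (1 against 32.4% and none against 8.36%), and this lean was not tested. In TPM, the libraries of 8 of the 10 genes did not overlap with the untreated ones for F. nucleatum (background 70.8%), 5 for H. pylori (35.6%) and 8 for N. subflava (64.5%). The median size of change, sign ignored, was 0.32 for the 10 genes and 0.37 for all genes with F. nucleatum, 0.21 and 0.26 with N. subflava, and 0.09 and 0.14 with H. pylori. In the test of any difference among the 4 groups, 8 of 10 passed against a background of 80.8%, and Becn1 (edgeR adjusted p = 0.851) and Nbr1 (edgeR adjusted p = 0.843) did not.

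The receptor genes parted, with a large rise of Sqstm1, a smaller one of Optn and no call for Nbr1. Sqstm1 (ENSMUSG00000015837, chromosome 11, 50199366 to 50210827, minus strand) encodes the receptor that gathers ubiquitinated cargo into condensates and also binds the stress sensor KEAP1. Its level was 295, 295 and 275 TPM in the untreated libraries, 917, 899 and 908 TPM with F. nucleatum, 349, 350 and 340 TPM with H. pylori and 685, 722 and 738 TPM with N. subflava. The 4 groups did not overlap, and stood in the order untreated, H. pylori, N. subflava and F. nucleatum. Sqstm1 rose by 1.62 ± 0.04 with F. nucleatum (3.08-fold, edgeR adjusted p = 1.62e-20), by 1.51 ± 0.04 with N. subflava (2.86-fold, adjusted p = 3.73e-20) and by 0.37 ± 0.04 with H. pylori (1.29-fold, adjusted p = 9.05e-08). It was the only one of the 10 genes to reach 2-fold, with F. nucleatum and with N. subflava, where 9.9% and 4.47% of all tested genes were called higher by that much. Without replicate 1, the H. pylori library with many pancreatic transcripts, the rise with H. pylori was 0.36. The untreated libraries still hold such transcripts in that fit, so their part in the rise was not tested. With L1 libraries alone the rises were 1.60 with F. nucleatum, 1.49 with N. subflava and 0.34 with H. pylori. Sqstm1 shares 583 bases with the antisense gene Mrnip, which had 225 counts against 162872 for Sqstm1 over the 12 libraries.

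Optn (ENSMUSG00000026672, chromosome 2, 5020642 to 5064051, minus strand) encodes optineurin, a receptor phosphorylated by the kinase TBK1 that acts on cytosolic bacteria and on mitochondria. Its level was 44.6, 45.7 and 40.8 TPM in untreated libraries, 52.7, 52.2 and 55.7 TPM with F. nucleatum, 42.6, 47.8 and 40.6 TPM with H. pylori and 50.7, 53.9 and 54.3 TPM with N. subflava. Both the F. nucleatum and N. subflava libraries lay above all untreated ones, while those with H. pylori overlapped them. Optn rose by 0.26 ± 0.06 with F. nucleatum (edgeR adjusted p = 0.0003) and by 0.48 ± 0.06 with N. subflava (adjusted p = 1.46e-07), and the difference with H. pylori was 0.10 ± 0.06 (adjusted p = 0.245).

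Nbr1 (ENSMUSG00000017119, chromosome 11, 101552149 to 101581951, plus strand) encodes a receptor that works beside SQSTM1 and binds ubiquitin through a related domain. Its level was 83.6, 83.3 and 73.3 TPM in untreated libraries, 81.7, 82.3 and 80.7 TPM with F. nucleatum, 76.1, 76.1 and 68.3 TPM with H. pylori and 62.5, 70.4 and 70.2 TPM with N. subflava. The N. subflava libraries were the lowest group and lay below all untreated libraries in TPM. After TMM scaling no difference was called, and the 95% intervals were -0.10 to 0.09 with F. nucleatum, -0.12 to 0.08 with H. pylori and -0.14 to 0.06 with N. subflava (edgeR adjusted p = 0.959, 0.791 and 0.523). On log2(TPM + 1) Nbr1 was called lower with N. subflava, at -0.24, close to the shift of the median gene on that scale.

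Sqstm1 made up most of the transcripts of these 3 receptor genes in every group, and its share was larger with F. nucleatum and N. subflava. Summed over Sqstm1, Nbr1 and Optn, the level was 412 ± 19.9 TPM (SD, n = 3) in untreated organoids, 1043 ± 9.09 with F. nucleatum, 464 ± 13.1 with H. pylori and 835 ± 33 with N. subflava. Sqstm1 made up 70.0 ± 0.595% of this sum in untreated organoids, 87.0 ± 0.152% with F. nucleatum, 74.7 ± 0.946% with H. pylori and 85.6 ± 0.258% with N. subflava. These shares are ratios within a library and are free of the scaling between libraries.

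**Figure D2:**
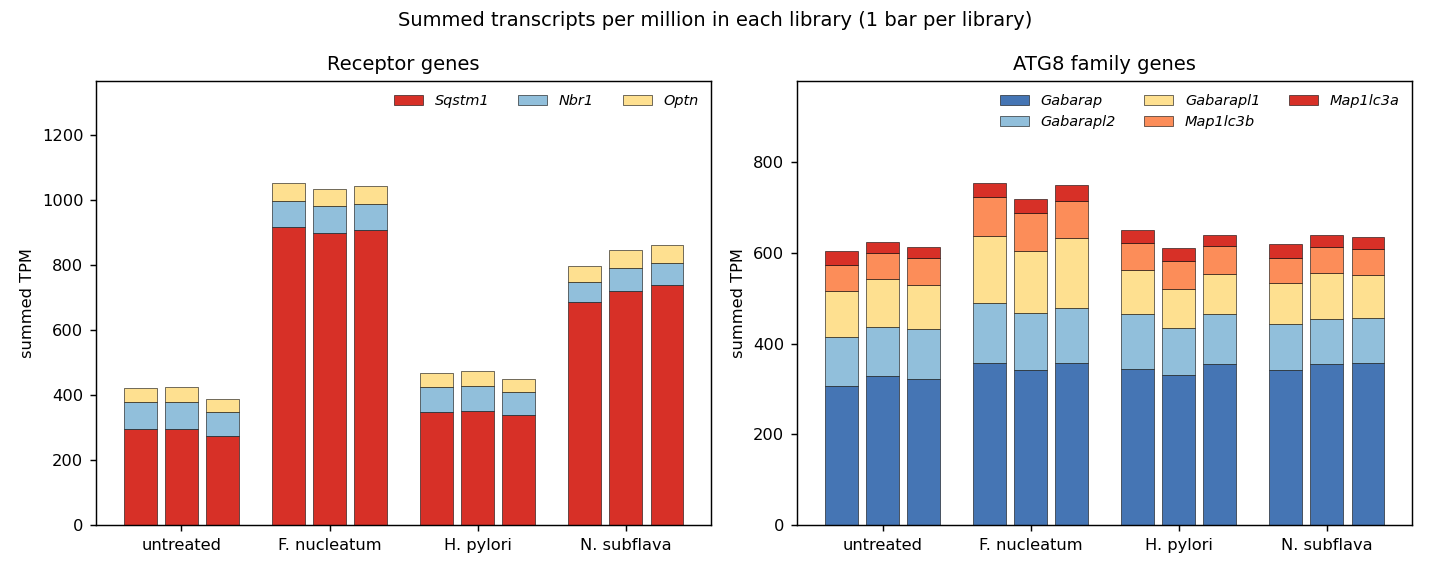
Summed level in TPM (vertical axis, from 0) of 3 receptor genes (left) and of the 5 ATG8 family genes (right), with 1 bar per library and colours for genes. The receptor bars with F. nucleatum average 1043 TPM against 412 TPM in untreated organoids, nearly all of the gain being Sqstm1, while the ATG8 bars average 741 and 614 TPM.

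Among the ATG8 genes, Map1lc3b and Gabarapl1 rose most with F. nucleatum, and their changes with the other bacteria were smaller or not called. Gabarap instead had its largest rise with N. subflava after TMM scaling, while in TPM the treated groups overlapped. Map1lc3b (ENSMUSG00000031812, chromosome 8, 121590361 to 121598760, plus strand) encodes LC3B, the protein most used to mark autophagosomes. Its level was 57.3, 55.3 and 58.8 TPM in untreated libraries, 85.6, 84.1 and 81.2 TPM with F. nucleatum, 60.6, 60.9 and 62.4 TPM with H. pylori and 55.6, 57.3 and 57.8 TPM with N. subflava. The F. nucleatum libraries stood above all others, and the N. subflava libraries overlapped the untreated ones. Map1lc3b rose by 0.52 ± 0.05 with F. nucleatum (edgeR adjusted p = 1.32e-09). Smaller rises of 0.20 ± 0.05 were called with H. pylori (edgeR adjusted p = 0.00366) and with N. subflava (adjusted p = 0.00119), but on log2(TPM + 1) the former was not called and the latter was -0.0056. Map1lc3b lies within Gm20388, a gene on the same strand with 109 to 776 counts per library, and reads may have been split between them.

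Gabarapl1 (ENSMUSG00000030161, chromosome 6, 129533160 to 129542346, plus strand) encodes a member of the GABARAP branch. Its level was 100, 107 and 97.0 TPM in untreated libraries, 150, 136 and 155 TPM with F. nucleatum, 95, 86.1 and 86.5 TPM with H. pylori and 91.1, 100 and 94.3 TPM with N. subflava. Only the F. nucleatum libraries were above the untreated ones, and those with H. pylori were below. Gabarapl1 rose by 0.51 ± 0.06 with F. nucleatum (edgeR adjusted p = 6.01e-08), and the differences were -0.08 ± 0.06 with H. pylori (adjusted p = 0.353) and 0.11 ± 0.06 with N. subflava (adjusted p = 0.108). On log2(TPM + 1) the value with H. pylori was called, at -0.18.

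Gabarap (ENSMUSG00000018567, chromosome 11, 69991143 to 69994951, plus strand) encodes the founding member of the same branch and was the most abundant ATG8 transcript in every group. Its level was 306, 328 and 321 TPM in untreated libraries, 356, 342 and 358 TPM with F. nucleatum, 344, 330 and 355 TPM with H. pylori and 341, 354 and 358 TPM with N. subflava. Each treated group lay above the untreated libraries, by a narrow gap, and the 3 treated groups overlapped. Gabarap rose by 0.34 ± 0.05 with N. subflava (edgeR adjusted p = 2.02e-06) and by 0.21 ± 0.05 with H. pylori (adjusted p = 0.00304). The rise with F. nucleatum was 0.11 ± 0.05 (edgeR adjusted p = 0.0437) and was no longer called without a filter on low counts or without any 1 of untreated replicates 1 and 2, F. nucleatum replicates 1 and 3, H. pylori replicate 1 and N. subflava replicates 2 and 3 (adjusted p from 0.00307 to 0.229 over all alternatives). The rise with H. pylori was not called on log2(TPM + 1).

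Of the other ATG8 genes, Gabarapl2 was called with F. nucleatum, at 0.18 ± 0.06 (edgeR adjusted p = 0.0161), a call lost without untreated replicate 1 or 2 or F. nucleatum replicate 1. It was not called with the other bacteria, and Map1lc3a was not called with any. Over the 5 genes the summed level was 614 ± 10.4 TPM in untreated organoids, 741 ± 19.0 with F. nucleatum, 634 ± 20.5 with H. pylori and 632 ± 11.1 with N. subflava. Gabarap made up 51.9 ± 1.01% of the sum in untreated organoids, 47.5 ± 0.200% with F. nucleatum, 54.1 ± 1.33% with H. pylori and 55.6 ± 0.707% with N. subflava. The F. nucleatum libraries thus held a smaller share of Gabarap and larger shares of Gabarapl1 (19.8% against 16.5%) and Map1lc3b (11.3% against 9.31%).

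Among the genes that start autophagy, Ulk1 fell with N. subflava and Becn1 was not called with any bacterium after TMM scaling. Ulk1 (ENSMUSG00000029512, chromosome 5, 110784488 to 110810097, minus strand) encodes the kinase that responds to AMPK and mTORC1. Its level was 17.0, 17.2 and 14.4 TPM in untreated libraries, 17.4, 18.0 and 17.7 TPM with F. nucleatum, 13.4, 15.9 and 13.0 TPM with H. pylori and 9.70, 10.2 and 10.9 TPM with N. subflava. The N. subflava libraries were below all others, those with H. pylori overlapped the untreated ones, and those with F. nucleatum lay just above them. Ulk1 fell by 0.45 ± 0.08 with N. subflava (edgeR adjusted p = 2.36e-05), and the differences were 0.10 ± 0.07 with F. nucleatum (adjusted p = 0.224) and -0.10 ± 0.07 with H. pylori (adjusted p = 0.391).

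Becn1 (ENSMUSG00000035086, chromosome 11, 101285952 to 101302286, minus strand) encodes the scaffold of the lipid kinase complex. Its level was 54.6, 53.0 and 53.8 TPM in untreated libraries, 54.4, 54.4 and 54.8 TPM with F. nucleatum, 50.8, 48.8 and 48.8 TPM with H. pylori and 46.8, 47.7 and 47.5 TPM with N. subflava. In TPM the H. pylori and N. subflava libraries lay below the untreated ones without overlap. After TMM scaling the 95% intervals were -0.11 to 0.08 with F. nucleatum, -0.11 to 0.07 with H. pylori and -0.07 to 0.11 with N. subflava (edgeR adjusted p = 0.838, 0.809 and 0.749). With N. subflava the value was called lower at -0.18 on log2(TPM + 1) and at -0.15 with no scaling, each close to the shift of the median gene.

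Downstream of that complex, Wipi1 rose with F. nucleatum alone among the 3 comparisons. Wipi1 (ENSMUSG00000041895, chromosome 11, 109573331 to 109611967, minus strand) encodes a propeller protein that reads phosphatidylinositol 3-phosphate on the forming membrane. Its level was 15.6, 15.2 and 14.2 TPM in untreated libraries, 27.9, 25.2 and 25.2 TPM with F. nucleatum, 12.3, 15.1 and 13.8 TPM with H. pylori and 12.3, 13.5 and 12 TPM with N. subflava. The F. nucleatum libraries stood well above all others, those with H. pylori overlapped the untreated ones, and those with N. subflava lay below them. Wipi1 rose by 0.77 ± 0.08 (1.70-fold, edgeR adjusted p = 7.7e-09), and the differences were -0.03 ± 0.08 with H. pylori (adjusted p = 0.811) and -0.05 ± 0.08 with N. subflava (adjusted p = 0.652). On log2(TPM + 1) the value with N. subflava was called, at -0.24.

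Atg16l1 (ENSMUSG00000026289, chromosome 1, 87755870 to 87792428, plus strand), whose product places ATG8 proteins on membranes as part of a complex with ATG5 and ATG12, was the gene that fell with F. nucleatum. Its level was 27.7, 28.4 and 25.1 TPM in untreated libraries, 21, 21.8 and 20.6 TPM with F. nucleatum, 25.9, 27.0 and 24.7 TPM with H. pylori and 19.3, 20.0 and 21.4 TPM with N. subflava. Both the F. nucleatum and N. subflava libraries lay below the untreated ones, and those with H. pylori overlapped them. Atg16l1 fell by 0.38 ± 0.07 with F. nucleatum (edgeR adjusted p = 1.87e-05) and by 0.22 ± 0.06 with N. subflava (adjusted p = 0.00749), and the difference with H. pylori was 0.04 ± 0.06 (adjusted p = 0.737).

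**Figure D3:**
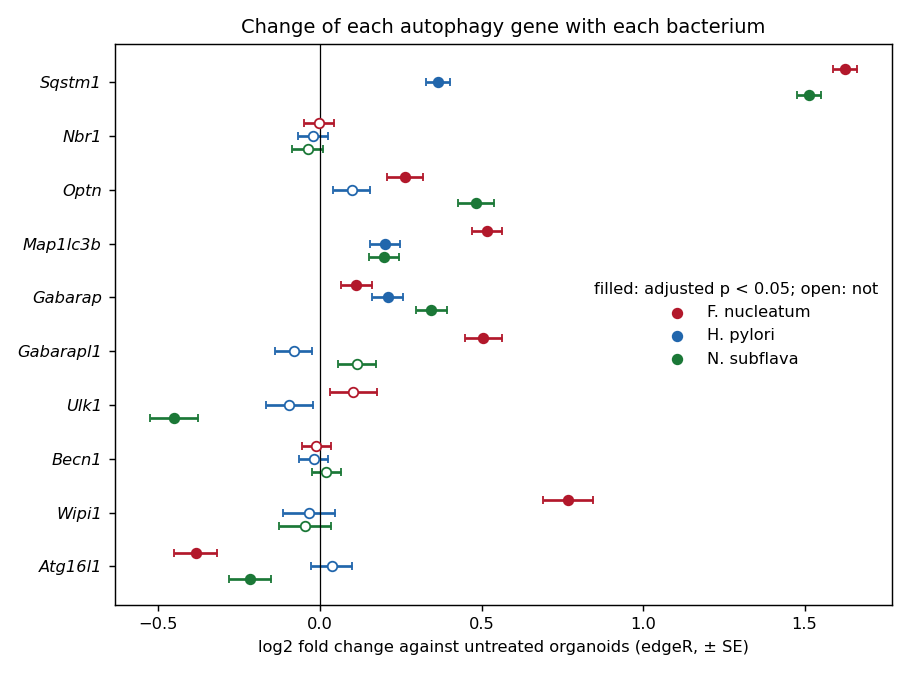
Log2 fold change against untreated organoids (horizontal axis, edgeR, bars ± SE) of the 10 genes with F. nucleatum, H. pylori and N. subflava; filled points passed an adjusted p of 0.05 and open points did not. Sqstm1 lies farthest right, at 1.62 with F. nucleatum and 1.51 with N. subflava. Filled points to the left of 0 are Atg16l1 with F. nucleatum and N. subflava and Ulk1 with N. subflava. On TPM the N. subflava point of Map1lc3b would lie at -0.0056.

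The bacteria were compared with each other in the same model. Between F. nucleatum and H. pylori 6 genes were higher and 1 lower with F. nucleatum, where 65.3% of all tested genes were called (31.8% higher and 33.5% lower). Between F. nucleatum and N. subflava 5 were higher and 3 lower with F. nucleatum, against a background of 66.6% (32.5% higher and 34.1% lower), and on log2(TPM + 1) or with no scaling the split was 7 higher and none lower. Between H. pylori and N. subflava 2 were higher and 4 lower with H. pylori, against a background of 36.7% (17.7% higher and 19% lower), and 2 and 2 on log2(TPM + 1). Log2 changes between bacteria set no group against the untreated libraries, which hold the pancreatic transcripts, although H. pylori replicate 1 holds them too. The untreated libraries still enter the filter, the scaling and the shared estimate of the spread, and so the p-values. With only the groups compared in the fit, Atg16l1 was not called between F. nucleatum and N. subflava (edgeR adjusted p = 0.0565). Likewise Gabarap was not called between H. pylori and N. subflava (edgeR adjusted p = 0.0558).

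Sqstm1 separated F. nucleatum and N. subflava from H. pylori. It was higher with F. nucleatum than with H. pylori by 1.26 ± 0.04 (edgeR adjusted p = 4.03e-18) and lower with H. pylori than with N. subflava, at -1.15 ± 0.04 (adjusted p = 1.75e-17). Between F. nucleatum and N. subflava the difference was 0.11 ± 0.04 (edgeR adjusted p = 0.0104), a call lost without F. nucleatum replicate 1 (adjusted p = 0.0510, the highest over all alternatives), and it was 0.35 as a log2 ratio of mean TPM.

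Wipi1, Gabarapl1 and Map1lc3b were higher with F. nucleatum than with either other bacterium. For Wipi1 the difference was 0.80 ± 0.08 against H. pylori and 0.81 ± 0.08 against N. subflava (edgeR adjusted p = 4.17e-09 and 3.09e-09). Gabarapl1 differed by 0.59 ± 0.06 and 0.39 ± 0.06 (edgeR adjusted p = 5.86e-09 and 2.6e-06), and Map1lc3b by 0.32 ± 0.05 in both comparisons (adjusted p = 2.67e-06 and 2.24e-06). Between H. pylori and N. subflava, Map1lc3b and Wipi1 were not called, with 95% intervals of -0.09 to 0.10 and -0.15 to 0.18.

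Ulk1 was lower with N. subflava than with F. nucleatum, the latter being higher by 0.55 ± 0.08 (edgeR adjusted p = 8.24e-07), and than with H. pylori (0.36 ± 0.08, adjusted p = 0.00061). Atg16l1 was lower with F. nucleatum than with H. pylori, at -0.42 ± 0.07 (edgeR adjusted p = 5.66e-06). Between F. nucleatum and N. subflava the values of Atg16l1 (-0.17), Gabarap (-0.23) and Optn (-0.22) were called, but on log2(TPM + 1) they were 0.06, 0.0042 and 0.02, so no order of these 2 groups can be given for the 3 genes. Nbr1 and Becn1 were not called between bacteria after TMM, but on log2(TPM + 1) Nbr1 was called higher with F. nucleatum than with H. pylori (0.15) and N. subflava (0.27), and Becn1 likewise (0.14 and 0.20). With no scaling, Nbr1 was also called higher with H. pylori than with N. subflava (0.12). Optn was lower with H. pylori than with N. subflava, at -0.38 ± 0.06 (edgeR adjusted p = 6.49e-06). Some small calls between bacteria rested on single libraries. Those between F. nucleatum and H. pylori were lost for Ulk1 without F. nucleatum replicate 2 or H. pylori replicate 1 or 3, and for Optn without replicate 3 of either group. Those between H. pylori and N. subflava were lost for Gabarapl1 without N. subflava replicate 2, and for Gabarap without H. pylori replicate 1 or 2 or any 1 of the N. subflava libraries. Both were also lost on the other scales, where Gabarapl1 was at -0.09 and Gabarap at -0.03 with no scaling and on log2(TPM + 1).

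**Figure D4:**
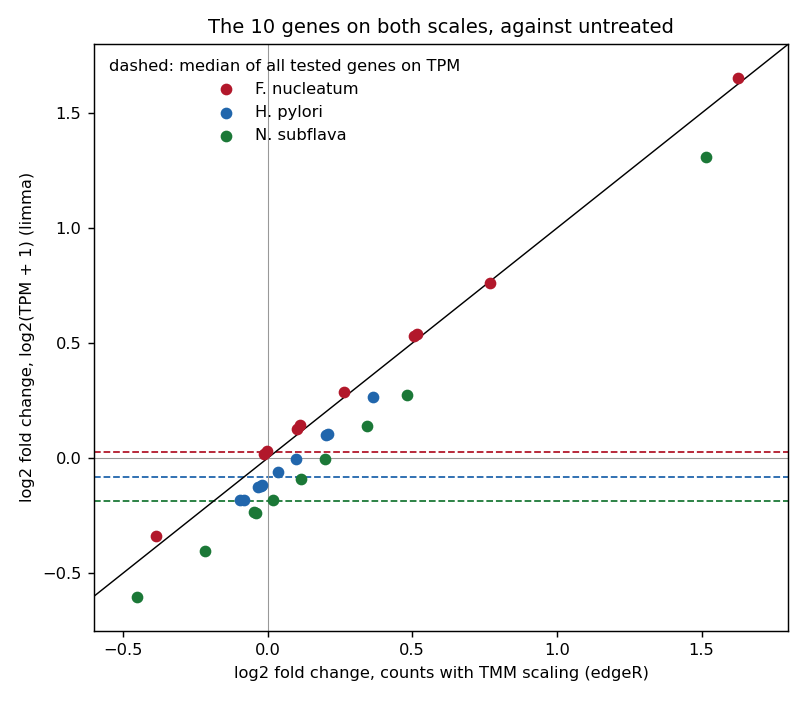
Log2 fold change against untreated organoids of the 10 genes from counts with TMM scaling (horizontal axis, edgeR) and from log2(TPM + 1) (vertical axis, limma), with the line of equality and, dashed, the median of all tested genes on TPM. F. nucleatum points lie close to the line, and N. subflava points lie below it by about the shift of the median gene, -0.18, so that Map1lc3b with N. subflava is at 0.20 on one axis and -0.0056 on the other.

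The 10 genes were set beside a wider list of 72 autophagy genes in 8 roles, of which 71 were tested. Mitf was the gene left out. Without the 10 genes, 31 of 61 rose and 8 fell with F. nucleatum, where 32.8% of all tested genes were higher and 32.4% lower. With H. pylori 14 rose and 6 fell, against 10.5% and 8.36% of all genes, and with N. subflava 25 rose and 13 fell, against 25.4% and 25.5%. Without the 10 genes the median log2 changes of the list were 0.17, 0.08 and 0.09, beside medians of -0.0029, 0.0021 and -0.02 over all genes. The counts by role that follow include the 10 genes and are to be read against these same shares. Sqstm1, Nbr1 and Optn are counted among cargo receptors and Atg16l1 among conjugation genes. Ulk1 is counted in the ULK1 complex and Becn1 in the lipid kinase complex. Over the whole list with N. subflava 29 rose and 15 fell after TMM, 19 and 24 with no scaling, and 18 and 28 on log2(TPM + 1). For H. pylori these splits were 17 and 6, 10 and 9, and 7 and 9, and 13 list genes in place of 23 were called without untreated replicate 1.

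Among cargo receptors, 9 of 15 rose and 1 fell with F. nucleatum, 7 rose and none fell with H. pylori, and 9 rose and 1 fell with N. subflava (over all genes 32.8%, 10.5% and 25.4% were higher). The mitophagy receptor Bnip3 rose most, from 23.1 to 79.0 TPM with F. nucleatum (1.74 ± 0.07), to 173 TPM with H. pylori (3.0 ± 0.07) and to 338 TPM with N. subflava (4.08 ± 0.07). Its order of groups differs from that of Sqstm1, which was highest with F. nucleatum. Bnip3l, its paralog, rose by 0.15 ± 0.05, 0.76 ± 0.05 and 1.14 ± 0.05 in the same order, the first of which was not called without untreated replicate 3. The ferritin receptor Ncoa4 rose by 0.46 ± 0.04, 0.74 ± 0.04 and 1.06 ± 0.04.

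Genes of the kinase and lipid kinase complexes, Ulk1 and Becn1 included, moved in both directions. With F. nucleatum 1 of 5 genes of the ULK1 complex rose and 2 fell, and 3 of 8 genes of the lipid kinase complex rose and 1 fell, while with N. subflava each set had 2 rises and 2 falls (over all genes 32.8% were higher and 32.4% lower with F. nucleatum, 25.4% and 25.5% with N. subflava). The N. subflava split of the ULK1 complex depends on scaling, since on log2(TPM + 1) the rise of Rb1cc1 was 0.0055 and not called, and Atg101 was called lower, at -0.27. Ulk2, the paralog of Ulk1, fell by 1.43 ± 0.11 with F. nucleatum, from 7.37 to 2.79 TPM, and by 0.75 ± 0.11 with N. subflava (edgeR adjusted p = 1.2e-10 and 2.4e-06). Atg101, a subunit of the ULK1 complex, rose by 0.67 ± 0.07 with F. nucleatum, while Rb1cc1, the scaffold of that complex, fell by 0.42 ± 0.06. Pik3c3, the catalytic subunit that works with beclin 1, fell by 0.54 ± 0.06 with F. nucleatum and by 0.71 ± 0.06 with N. subflava. With H. pylori, Ulk2 and Pik3c3 were called lower too, at -0.41 to -0.23 and -0.28 to -0.16 over all alternatives. Both of these calls were lost in several alternatives, such as without untreated replicate 1. Uvrag, a beclin 1 partner in later steps, rose by 1.01 ± 0.09 with F. nucleatum (6.18 to 12.7 TPM), and its differences were 0.0037 ± 0.10 with H. pylori and 0.09 ± 0.10 with N. subflava. Atg101, Rb1cc1 and Pik3c3 were chosen after their values were seen, as partners of Ulk1 and Becn1.

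In the later steps, 4 of 6 fusion genes rose and 1 fell with F. nucleatum (32.8% and 32.4% over all genes), and 1 rose and 3 fell with N. subflava (25.4% and 25.5%). Plekhm1, which links late endosomes to the fusion machinery, rose by 1.17 ± 0.08 with F. nucleatum (edgeR adjusted p = 1.68e-11), and with N. subflava it was called lower only under some settings, at -0.37 with no scaling. Of 11 conjugation genes 5 rose and 2 fell with F. nucleatum. The protease gene Atg4c, whose product processes ATG8 proteins, rose by 0.67 ± 0.11, and Atg16l2, the paralog of Atg16l1 and chosen as such after its value was seen, rose by 1.64 ± 0.18 from 0.934 to 2.97 TPM. Of 11 tested regulators 7 rose with F. nucleatum, 3 rose and 3 fell with H. pylori, and 5 rose and 4 fell with N. subflava (over all genes 32.8%, 10.5% and 25.4% were higher). Ddit4, an inhibitor of mTORC1, rose by 0.75 ± 0.07, 1.06 ± 0.07 and 1.75 ± 0.07 with F. nucleatum, H. pylori and N. subflava. Foxo3, a transcription factor of autophagy genes, rose by 0.25 ± 0.05, 0.51 ± 0.05 and 1.0 ± 0.05 in that order. Sesn2, another inhibitor of mTORC1, rose by 0.94 ± 0.06 with N. subflava. It also rose with F. nucleatum (0.20 to 0.34 over all alternatives) and with H. pylori (0.26 to 0.47), called in each alternative. Mtor itself fell by 0.45 ± 0.09 with H. pylori and by 0.46 ± 0.09 with N. subflava.

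**Figure D5:**
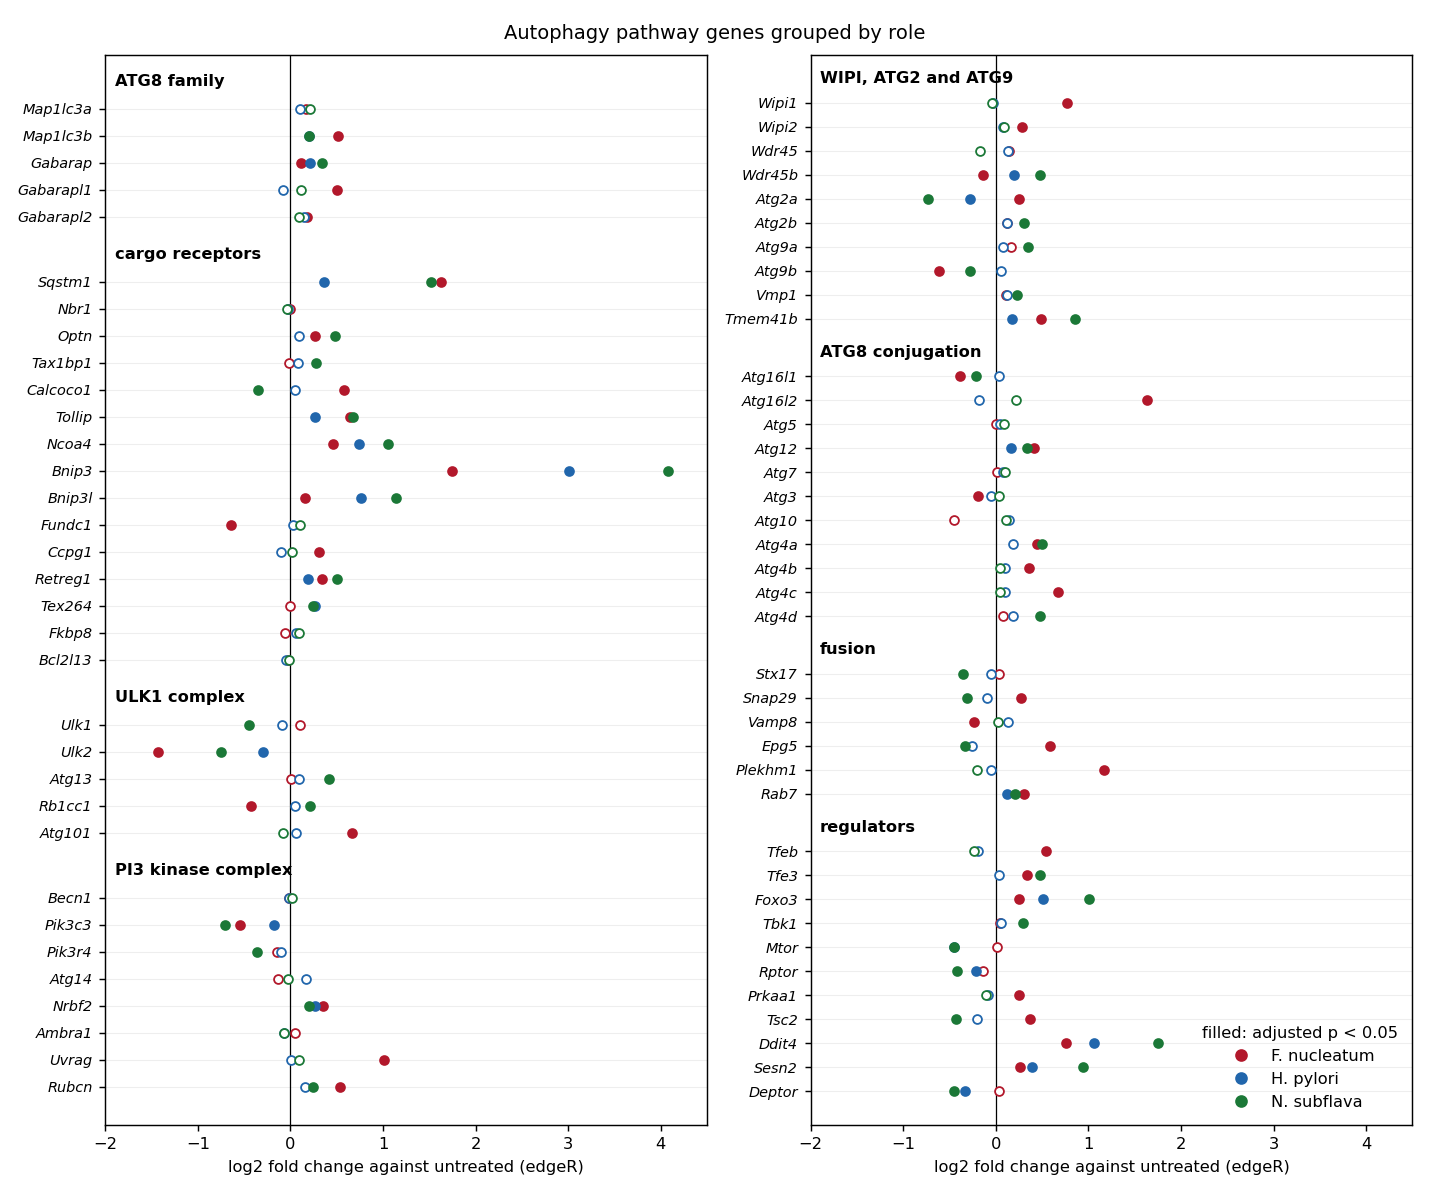
Log2 fold change against untreated organoids (horizontal axis, edgeR) of the 71 tested autophagy genes grouped by role, for F. nucleatum (red), H. pylori (blue) and N. subflava (green); filled points passed an adjusted p of 0.05. Bnip3 reaches 4.08 with N. subflava, Ulk2 lies at -1.43 with F. nucleatum, and most genes lie close to 0; with N. subflava the split of calls turns from 29 higher and 15 lower to 18 and 28 on log2(TPM + 1).

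Across the 12 libraries, Pearson correlations of log2(TPM + 1) are given as a description, since the libraries fall into 4 groups and share their scaling. Among 9471 genes the patterns closest to Sqstm1 were those of Nfkbiz (r = 0.998), Hmox1 (r = 0.997) and Nfkbia (r = 0.996), and 109 genes exceeded 0.95. Hmox1 stood at 105 TPM in untreated organoids, 1116 with F. nucleatum, 176 with H. pylori and 637 with N. subflava. For Wipi1 the closest were Slc45a4 (r = 0.988), Cds2 (r = 0.988) and Grn (r = 0.987), among 397 genes above 0.95. For Ulk1 they were Tmem2 (r = 0.986), Slc12a7 (r = 0.983) and Usp38 (r = 0.983), among 171 such genes. Among the 45 pairs of the 10 genes, r ran from -0.891 (Sqstm1 and Atg16l1) to 0.937 (Map1lc3b and Wipi1), with Gabarapl1 and Wipi1 at 0.931 and Ulk1 and Nbr1 at 0.914.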

How the data were processed

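RNA from 12 libraries of mouse gastric organoids was sequenced. The authors deposited raw read counts (whole numbers, not normalized) and TPM values side by side in the same table, per the file headers. GRCm38 is the genome build named in the submitters' processing notes. How reads were aligned and counted, and whether by strand, is not given in the sources used here. Another 24 columns of per-library values (RPKM and CPM) were not used. Total counts ranged from 16955155 to 23236260 per library, which limits precision most for the lowest gene, Wipi1.

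The deposited counts were tested with edgeR 4.0.16 (R 4.3.3) after its default filter on low counts, which kept 12805 genes with 99.96% of all counts, with TMM scaling and a robust quasi-likelihood fit. A single model held 12 libraries with 1 coefficient for each group, without blocking by replicate. P-values were two-sided and adjusted by Benjamini-Hochberg over all tested genes, a gene being called at 0.05 whatever its fold. SE is the absolute log2 change over the root of the F statistic. The common coefficient of biological variation was 5.71%, and replicates differed by more than counting noise (chi-square over its degrees of freedom 2.26 to 10.6). The script was tested on simulated data first. Alternatives were limma 3.58.1 on log2 TPM with pseudocounts of 1, 0.1 and 5, DESeq2 1.42.0, other scalings and filters, only the groups compared, a replicate block and leaving out each library; using only L1 libraries was chosen after seeing the data.

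The 10 genes, the autophagy list and the motifs were chosen with earlier results of these data known. Besides the 10 genes, up to 6 list genes per comparison with untreated organoids were named, those with the largest called changes and at least 5 TPM in the higher group, plus partners in the same complex or family. The 3 genes of most similar pattern (at least 5 TPM) were taken for the 3 genes with the widest range of group means. Shared transcript sequence was searched with BLAST 2.17.0 against GENCODE M21 transcripts at 95% identity over 100 bases. Promoter windows are RefSeq's, on GRCm38.p6.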

Additional observations from a re-analysis of the deposited data

How the results depend on the processing

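Each of 17 counts of called genes was recomputed under the alternatives, and 386 of 389 values lay within 1.5 times the reported count. The exceptions were with H. pylori. All genes called numbered 2419, against 1594 without untreated replicate 1 and 1596 without untreated replicate 2, with a range of 1594 to 3136 when each library was left out. List genes called numbered 23, with a range of 13 to 26. Counts among the 10 genes ranged from 6 to 7 with F. nucleatum and stayed at 3 with H. pylori and 6 with N. subflava when a library was left out.

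Changes of sign with a call on either side came with the TPM scale or with no scaling, and another 110 values changed sign with no call on either side, some of them when a single library was left out. With limma on log2(TPM + 1), + 0.1 and + 5 in turn, Map1lc3b with N. subflava against untreated was -0.0056, -0.0057 and -0.0053, and Becn1 was -0.18, -0.19 and -0.17, and -0.15 with no scaling. For F. nucleatum against N. subflava the values were 0.0042, 0.0042 and 0.0041 for Gabarap, 0.0157, 0.016 and 0.0146 for Optn, 0.0633, 0.0661 and 0.0533 for Atg16l1 (0.0081 with no scaling), and 0.20, 0.21 and 0.19 for Becn1 (0.15 with no scaling).

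Same-numbered libraries did not deviate together: 18 correlations ran from -0.0959 to 0.0919, none above 0.1, and in 8 of the 18 the same number was the best match. In a fit with a replicate block, 7, 3 and 6 of the 10 genes were called with F. nucleatum, H. pylori and N. subflava, as without it, and 2560 in place of 2419 genes were called with H. pylori over all genes.

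With 3 libraries a group, several small log2 changes turn on the scaling chosen, mainly with N. subflava and H. pylori, while others, such as Optn with F. nucleatum (0.23 to 0.29), held in each alternative. Depth limits Wipi1 most.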
